A study of Mus musculus with 31 samples.

Results

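The RNA of pancreatic mesenchymal cells was compared between newborn mice that carry a deletion of the H19DMD in these cells and their controls. The libraries of each group were taken by their sample labels, and they are 7 of the 31 samples of the series, 4 mutant and 3 control libraries. All animals were C57BL/6 mice at postnatal day 2. Mutants were H19DMDfl/+; Nkx3.2+/Cre, and controls were H19DMD+/+; Nkx3.2+/Cre, so every animal of both groups carried 1 Cre allele at Nkx3.2. Pancreata were dissociated with trypsin, and cells were sorted by fluorescence: YFP-positive cells were taken as mesenchymal and YFP-negative cells as the other fraction. Deletion is limited to cells in which Nkx3.2, a transcription factor of gut and pancreatic mesenchyme, has driven Cre. The labels do not state through which parent the floxed allele came, nor whether each library is a separate animal, so the p-values measure the spread between these libraries. The labels list 1 more control sample, which was not analysed here. The deleted region is not a feature of the table, so deletion itself was not read.

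Igf2, a fetal growth factor that signals through the IGF1 and insulin receptors, and H19, a long non-coding RNA, are neighbouring imprinted genes. Between them lies the H19DMD, a differentially methylated region that serves as an insulator on the maternal chromosome. There it binds CTCF and keeps shared downstream enhancers on H19, while on the paternal chromosome it is methylated and the enhancers act on Igf2. Loss of the maternal copy is known to lower H19 and to release maternal Igf2. In the developing pancreas the mesenchyme surrounds the epithelium and supplies it with growth signals.

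Values were FPKM, a measure of fragments scaled to transcript length and library size, and differences are mutant minus control on the log2(FPKM + 1) scale. Absolute depth is unknown. Relative depths were estimated from the lowest values in genes with 1 transcript, set against control library 1. They were 0.737 to 1.43 in the mutant libraries and 0.966 to 1.00 in the control libraries. Between 17476 and 18511 of 38283 features had a value above 0. Over all 15856 tested features, Pearson's r across genes was 0.661 to 0.708 within mutants, 0.685 to 0.710 within controls and 0.664 to 0.734 between the groups. Over features with a transcript of at least 200 nt, r was 0.862 to 0.898 within mutants, 0.892 to 0.907 within controls and 0.863 to 0.918 between the groups. Mutant library 3 had the lowest median-ratio scaling factor, 0.878 against 1.01 to 1.06 in the others, and it is left out in turn where a result rests on it. The sort was checked on 14 mesenchymal markers, whose summed FPKM was 5783 to 7190.4 in mutants and 6376 to 7465 in controls. Col3a1, a fibrillar collagen, averaged 110.4-fold more in mesenchymal than in non-mesenchymal control libraries, and Ctrb1, an acinar protease, averaged 799.8 FPKM against 58889 FPKM.

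H19 was the only feature with a transcript of at least 200 nt that fell past the threshold in mutant mesenchymal cells, and Igf2 and its antisense transcript were higher without passing it. H19 (ENSMUSG00000000031, minus strand, chr7:142575529-142578143 in GRCm38) was at 635, 766, 565 and 835 FPKM in mutants and 2437, 2446 and 2454 FPKM in controls. No mutant library came near a control library, and the control values lay within a narrow band. The level in mutants was 28.6% of that in controls, a log2 difference of -1.82 ± 0.19 (SE) with an adjusted p of 0.0458 by limma. An exact permutation test, two-sided over all 35 relabellings, gave p = 0.0286, the smallest that 4 against 3 libraries allow. The adjusted p lay close to the threshold: leaving out any 1 of the 7 libraries raised it to between 0.0618 and 0.143, with log2 differences of -1.91 to -1.72. Over all alternatives it ranged from 0.0149 to 0.834.

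Igf2 (ENSMUSG00000048583, minus strand, chr7:142650766-142666816) was at 7923, 7467, 6608 and 6162 FPKM in mutants and 3876, 4024 and 3648 FPKM in controls. Every mutant library lay above every control library, at 1.83-fold on average, with a log2 difference of 0.87 ± 0.21 (SE) and an adjusted p of 0.927. The exact permutation test gave p = 0.0286, and limma gave an unadjusted p of 0.0042. Igf2as, called Igf2os in GENCODE M21 (ENSMUSG00000086266, plus strand, chr7:142659693-142670356), is transcribed from the opposite strand of the Igf2 locus. It was at 11.8, 11.8, 11.4 and 13.96 FPKM in mutants and 3.96, 3.76 and 2.36 FPKM in controls, 3.64-fold on average, with a log2 difference of 1.62 ± 0.21 (SE) and an adjusted p of 0.128. The groups did not overlap, and with the variance shared with the non-mesenchymal libraries the adjusted p was 0.0149 (0.0149 to 0.834 over all alternatives). Whether strand was used in counting is not given in the sources used here, so reads of Igf2 and of its antisense transcript cannot be told apart. In the non-mesenchymal fraction of the same genotypes the log2 difference was -0.27 for H19 and 1.00 for Igf2. There Igf2 was at 88.5, 157, 45.4 and 141 FPKM in mutants and 53.2, 45.2 and 46.2 FPKM in controls, with overlapping groups. In controls it averaged 79.8-fold more in mesenchymal libraries. Non-mesenchymal mutant libraries 2 and 4, its highest, also had the highest summed FPKM of 29 collagen genes, 243 and 256 against 126 to 163 in the others. The part of carried-over mesenchymal RNA was not tested. The difference of the effect between fractions was -1.55 (adjusted p = 0.448) for H19 and -0.14 (adjusted p = 0.979) for Igf2, and the latter was 0.00 with median-ratio scaling between libraries.

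Each transcript hosts a microRNA, and the mature sequences are shown because their seeds, in capitals (bases 2 to 8), set which messages they pair with. The sequences are from RefSeq, build GRCm38.p6, and no seed is shared among the 4.
mmu-miR-675-5p (chr7:142577112-142577133, - strand): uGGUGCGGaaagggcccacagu
mmu-miR-675-3p (chr7:142577078-142577099, - strand): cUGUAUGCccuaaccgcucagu
mmu-miR-483-5p (chr7:142654968-142654989, - strand): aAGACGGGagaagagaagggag
mmu-miR-483-3p (chr7:142654932-142654952, - strand): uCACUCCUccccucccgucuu
The features Mir675, whose miRNAs are cut from H19, and Mir483, which lies within Igf2, were listed at 0 in all 7 libraries. Total RNA was amplified as cDNA, and mature microRNAs were not measured as such.

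**Figure D1:**
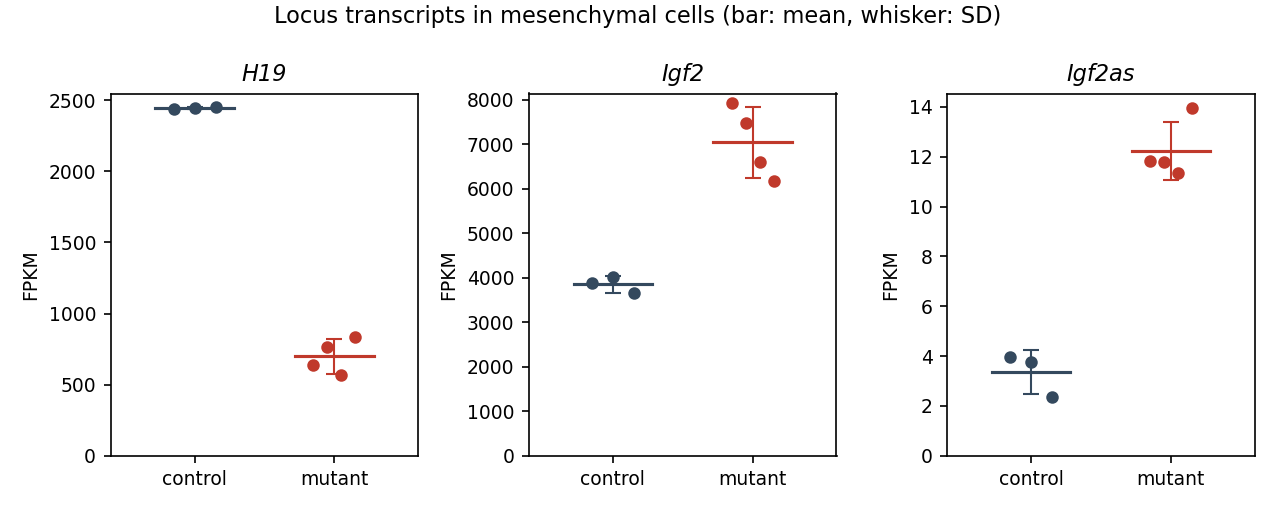
Values in FPKM (vertical axes from 0, with a separate scale for each gene) of H19, Igf2 and Igf2as in the 3 control and 4 mutant mesenchymal libraries. Points are libraries, bars are means and whiskers are SD; H19 lies at 565 to 835 FPKM in mutants against 2437 to 2454 FPKM in controls, and the groups do not overlap for any of the 3 transcripts.

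Of 12 other genes around the locus that could be tested, 0 had groups that did not overlap, against 5.39% of all features tested. Cd81, a tetraspanin, was at 294 to 437 FPKM in mutants and 288 to 515 FPKM in controls, and Ctsd, the lysosomal protease cathepsin D, at 40.6 to 55.8 FPKM in mutants and 51.8 to 64.4 FPKM in controls. Ins2, the insulin gene that neighbours Igf2, was at 36.5, 73.7, 16.6 and 7.26 FPKM in mutants and 49.1, 61.9 and 24.8 FPKM in controls. The groups overlapped for all 3 genes.

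Across the table, few features passed the threshold. Of 15856 tested, 11 passed at an adjusted p under 0.05 (0.0694%), 4 of them higher (0.0252%) and 7 lower (0.0441%) in mutants. Apart from H19, the 10 others were annotated as small RNAs under 200 nt or had no annotated transcript, and each was listed at 0 in every library of a group. Of 14346 features with a transcript of at least 200 nt, 1 passed (0.00697%, against 5.22% at an unadjusted p under 0.05), and of 12349 protein-coding genes, 0 passed, with 659 at an unadjusted p under 0.05 (5.34%). Leaving out mutant library 1 or 2 gave 17 calls, leaving out control library 1 gave 22, and leaving out control library 2 or 3 gave 27.

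Gene groups are described below by weaker measures: the sign of the difference, and whether every mutant library lay on 1 side of every control library. The sign was below 0 for 57.3% of all features, with a median log2 difference of -0.07. Groups did not overlap for 5.39% of features, higher in mutants for 1.62% (257) and lower for 3.77% (597). Of the 35 relabellings of these libraries, 1 sets all mutants above all controls and 1 sets them all below. Chance alone thus separates the groups at a rate of 0.0286 each way. The 5.39% is no larger than chance gives, and separate groups in a gene are by themselves no sign of change. With median-ratio scaling the median was 0.00 and the split was 410 higher and 445 lower of 15815, so medians between -0.07 and 0 turned above 0 and no direction is read from them. Where a median is followed by a range, the range is over the 7 medians with 1 library left out. An unadjusted p under 0.05 was reached by 4.76%, higher for 1.44% and lower for 3.32%, in total no more than that cutoff gives by chance. No protein-coding gene and no member of a gene group named from here on passed the adjusted threshold, and their adjusted p was between 0.809 and 0.999.

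Genes of mitosis were lower almost throughout. Of 49 genes for spindle, kinetochore, chromosome condensation and cytokinesis, 48 had a difference below 0, and Prc1, a spindle midzone protein, was the exception at 0.05 (-0.24 without mutant library 4). The median was -0.37 against -0.07 over all features, with 58.8% of protein-coding genes below 0, and in 10 of 49 the groups did not overlap, all lower (20.4% against 3.77%). The mean log2(FPKM + 1) over the 49 genes was 3.65, 3.50, 3.10 and 3.35 in the mutant libraries and 3.79, 3.78 and 3.78 in the control libraries. The 3 control libraries lay close together, all mutant libraries lay below them, and mutant library 3 was the lowest, an order that also held for the mean over all protein-coding genes (3.46, 3.46, 3.25 and 3.45 in mutants, 3.53, 3.47 and 3.47 in controls). Without mutant library 3, 44 of 49 were below 0 with a median of -0.31, and over all single libraries left out the median ranged from -0.49 to -0.31. With median-ratio scaling 43 of 49 were below 0, the median was -0.30 and 7 had separate groups. In the non-mesenchymal fraction the median over the same genes was -0.11 against 0.05 over all features, with 33 of 49 below 0. The difference between fractions was not tested for the group. In bulk RNA, fewer cells of a type and less RNA per cell cannot be told apart.

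Birc5 (survivin), a chromosomal passenger protein and inhibitor of apoptosis, was at 14.3, 12.2, 5.04 and 15.5 FPKM in mutants and 22.9, 17.8 and 17.3 FPKM in controls. Its log2 difference was -0.76 ± 0.37 (SE), and the lowest value was in mutant library 3. Kif11, the kinesin motor that separates the spindle poles, was at 11.6, 7.96, 7.26 and 10.3 FPKM in mutants and 12.1, 14.5 and 14.1 FPKM in controls, with a log2 difference of -0.52 ± 0.21 (SE). Ndc80, the kinetochore protein that holds microtubules, was at 8.23, 7.94, 6.02 and 4.23 FPKM in mutants and 10.7, 9.21 and 8.65 FPKM in controls (-0.50 ± 0.25 (SE)). Top2a, the topoisomerase that untangles sister chromatids, was at 56.0, 58.6, 50.0 and 40.1 FPKM in mutants and 62.4, 63.1 and 64.5 FPKM in controls, 1.24-fold lower in mutants. In each of these 4 genes all mutant libraries lay below all control libraries. The difference was -0.43 for Birc5 without mutant library 3, and -0.33 for Ndc80 and -0.21 for Top2a without mutant library 4.

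Further members with separate groups were lower. Ttk, the spindle checkpoint kinase Mps1, was at 4.88, 3.70, 1.46 and 1.78 FPKM in mutants and 6.16, 5.41 and 5.47 FPKM in controls. Nuf2, which pairs with Ndc80 in the kinetochore, was at 4.72, 5.63, 4.42 and 5.01 FPKM in mutants and 9.997, 7.76 and 8.83 FPKM in controls, with a log2 difference of -0.73 ± 0.18 (SE) and an unadjusted p of 0.00518. Ncapd2, a condensin subunit, was at 4.64 to 8.05 FPKM in mutants and 8.11 to 9.25 FPKM in controls. Incenp, Cenpe and Kif15 did not overlap either, with differences of -0.36, -0.30 and -0.26. With median-ratio scaling, Kif11, Incenp and Cenpe overlapped, and without mutant library 3 the difference of Kif15 was -0.13. The familiar proliferation marker Mki67 was at 44.8, 37.7, 24.6 and 24.5 FPKM in mutants and 50.0, 44.7 and 36.6 FPKM in controls, and Cdk1, the mitotic kinase, was at 32.6, 19.1, 9.82 and 23.4 FPKM in mutants and 24.7, 32.04 and 23.9 FPKM in controls. Both overlapped between groups.

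Foxm1, a transcription factor known to act on genes of the G2 and M phases, was among the 12 protein-coding genes with the lowest differences of those with separate groups and a mean log2(FPKM + 1) of at least 3. It was at 12.02, 15.4, 5.58 and 18.4 FPKM in mutants and 29.0, 20.0 and 38.8 FPKM in controls, 2.28-fold lower in mutants, with a log2 difference of -1.19 ± 0.41 (SE). The highest mutant value lay just under the lowest control value.

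Promoters of mitosis genes are known to carry a cell cycle genes homology region, written TTTGAA or TTCGAA, and CCAAT boxes. These were sought on both strands of the 250 bases before each RefSeq start (GRCm38.p6), and a match to one may overlap a match to the other. Of the 49 genes, 41 matched, with 44 promoters. The homology motif stood in 47.7% of these 44 and in 17.1% of all 32851 promoters, CCAAT in 77.3% and 33.8%, and both together in 43.2% and 6.02%. For DNA replication genes the homology motif stood in 16.7% of 36 promoters and CCAAT in 58.3%. The promoters of the 4 named genes with separate groups are printed, with any match in capitals.
Top2a (chr11:99024190-99024439, - strand): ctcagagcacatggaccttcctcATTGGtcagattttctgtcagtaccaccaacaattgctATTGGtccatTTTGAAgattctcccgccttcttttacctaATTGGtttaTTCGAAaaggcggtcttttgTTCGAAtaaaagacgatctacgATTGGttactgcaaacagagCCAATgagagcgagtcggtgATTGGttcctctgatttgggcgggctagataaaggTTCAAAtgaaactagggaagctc
Kif11 (chr19:37376132-37376381, + strand): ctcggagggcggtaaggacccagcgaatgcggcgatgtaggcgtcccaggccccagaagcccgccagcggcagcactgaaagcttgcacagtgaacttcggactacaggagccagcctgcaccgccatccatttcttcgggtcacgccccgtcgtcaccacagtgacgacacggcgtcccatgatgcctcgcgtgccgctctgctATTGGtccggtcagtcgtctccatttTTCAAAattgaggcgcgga
Birc5 (chr11:117848987-117849236, + strand): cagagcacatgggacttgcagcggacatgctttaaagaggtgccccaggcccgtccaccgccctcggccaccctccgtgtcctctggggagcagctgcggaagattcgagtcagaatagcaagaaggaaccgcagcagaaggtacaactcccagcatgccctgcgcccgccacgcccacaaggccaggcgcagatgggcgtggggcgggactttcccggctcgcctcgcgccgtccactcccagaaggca
Ndc80 (chr17:71526858-71527107, - strand): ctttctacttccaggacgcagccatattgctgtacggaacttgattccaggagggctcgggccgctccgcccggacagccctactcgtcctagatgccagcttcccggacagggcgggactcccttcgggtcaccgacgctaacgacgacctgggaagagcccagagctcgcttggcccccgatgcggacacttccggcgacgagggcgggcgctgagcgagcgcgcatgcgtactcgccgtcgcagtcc
Top2a held 4 homology motifs and 6 CCAAT boxes and Kif11 1 of each, while Birc5 and Ndc80 held neither in this window. All 4 genes had lower values in mutants, with and without a match. They were printed because their groups were separate, and all 10 mitosis genes with separate groups were lower. Their direction therefore says nothing about the motifs. The matches are letters only, and no binding was measured.

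**Figure D2:**
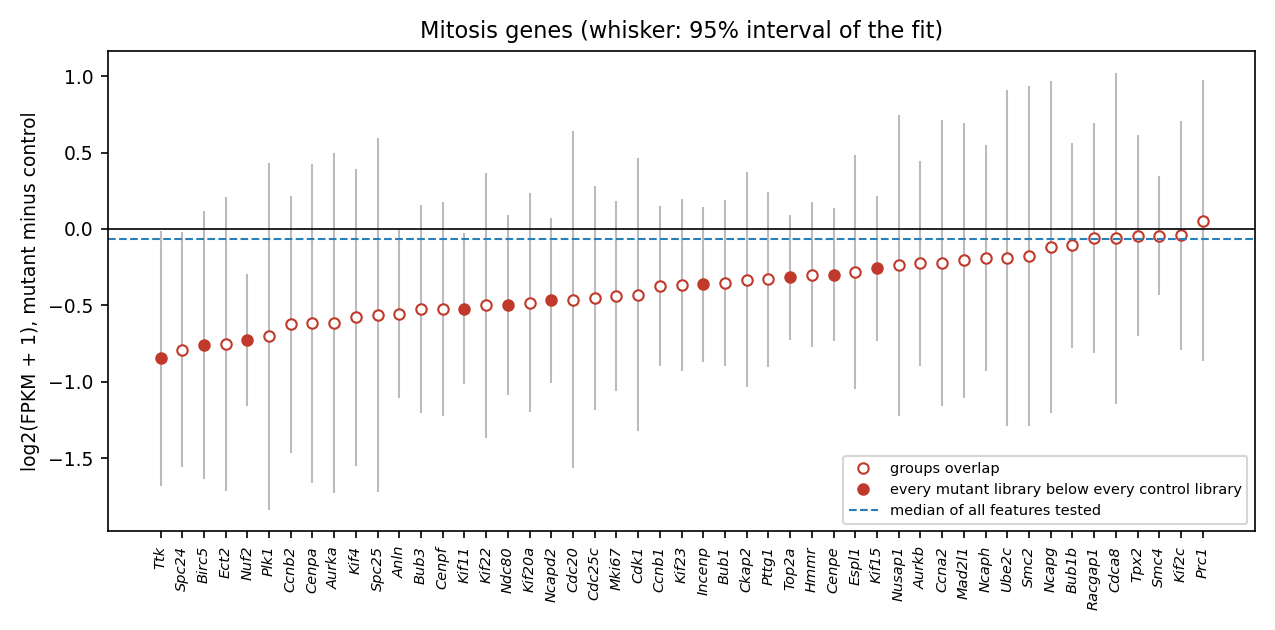
Differences in log2(FPKM + 1), mutant minus control, on the vertical axis, for the 49 mitosis genes along the horizontal axis in order of size, with the 95% interval of the limma fit. Filled points are the 10 genes whose groups do not overlap, the dashed line is the median of all features (-0.07), and 48 of 49 points lie below 0 while most intervals cross it.

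Other cell cycle genes were closer to the rest of the table. Of 39 DNA replication genes, 30 were below 0 with a median of -0.15, which was -0.09 without mutant library 3 and -0.26 without mutant library 4. In 2 the groups were separate and lower (5.13% against 3.77%), and in 1 separate and higher (2.56% against 1.62%). Mcm6, a subunit of the replicative helicase, was at 17.6, 14.98, 13.4 and 17.6 FPKM in mutants and 20.0, 25.1 and 23.1 FPKM in controls, and Rrm1, the large subunit of ribonucleotide reductase, was at 15.4, 13.6, 12.7 and 11.5 FPKM in mutants and 16.3, 17.6 and 19.02 FPKM in controls. These were the 2 lower ones. Pcna, the sliding clamp, was at 31.5 to 40.4 FPKM in mutants and 33.0 to 43.4 FPKM in controls, with overlapping groups.

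Among 32 genes of the G1 phase, 25 were below 0 with a median of -0.07 (-0.19 without mutant library 4 to -0.08 without control library 2). In 5 the groups were separate and lower (15.6% against 3.77%) and in 1 separate and higher (3.13% against 1.62%). With scaling 16 of 32 were below 0, 4 were separate and lower and 2 separate and higher. Cdk4, the kinase that cyclin D activates, was at 88.1, 99.5, 86.2 and 110.2 FPKM in mutants and 132, 140.2 and 126 FPKM in controls, a log2 difference of -0.47 ± 0.15 (SE), and every control library lay above every mutant library. Cdkn1b (p27), an inhibitor of cyclin-dependent kinases, was at 10.1, 8.24, 9.15 and 7.87 FPKM in mutants and 7.80, 7.17 and 5.19 FPKM in controls, higher in mutants without overlap. E2f5, a repressive E2F factor, was at 7.44, 6.93, 7.80 and 8.07 FPKM in mutants and 8.46, 8.64 and 12.2 FPKM in controls, and its groups overlapped with scaling. Without control library 3 the differences of Cdkn1b and E2f5 were 0.21 and -0.16. Cdkn2b (p15) and Cdkn2d (p19), inhibitors of Cdk4 and Cdk6, were both lower, at 0.377 to 0.898 FPKM in mutants and 2.28 to 4.17 FPKM in controls and at 2.66 to 7.70 FPKM in mutants and 9.52 to 11.1 FPKM in controls. Of the D-type cyclins, Ccnd1 was at 17.7 to 32.2 FPKM in mutants and 17.4 to 28.4 FPKM in controls and Ccnd2 at 43.6 to 57.5 FPKM in mutants and 40.4 to 44.4 FPKM in controls. Their groups overlapped, and with scaling those of Ccnd2 were separate and higher.

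Genes of mesothelium, the epithelial sheet that covers the organ surface, showed the lowest median of the groups examined. Of 12 genes, 11 were below 0, the median was -1.04, and in 4 the groups did not overlap, all lower (33.3% against 3.77%). With median-ratio scaling the median was -0.97 and 3 were separate. The mean log2(FPKM + 1) was 3.58, 3.59, 2.86 and 2.61 in the mutant libraries and 4.71, 3.76 and 3.66 in the control libraries. Control library 1 was the highest of the 7, and without it the median was -0.63 with 10 of 12 below 0. Mutant libraries 1 and 2 lay close to control libraries 2 and 3, and mutant libraries 3 and 4 lay far below.

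Msln (mesothelin), a surface glycoprotein that marks mesothelium, was at 11.5, 14.3, 5.25 and 4.85 FPKM in mutants and 37.9, 14.9 and 17.7 FPKM in controls, 2.62-fold lower, with a log2 difference of -1.31 ± 0.47 (SE). Lrrn4, a leucine-rich repeat membrane protein, was at 15.5, 12.2, 9.29 and 3.45 FPKM in mutants and 44.6, 21.3 and 19.2 FPKM in controls, and Upk1b, a uroplakin, at 9.71, 7.56, 4.98 and 5.69 FPKM in mutants and 24.996, 12.5 and 9.78 FPKM in controls. Bnc1, a zinc finger factor, was at 3.38, 1.97, 2.25 and 0.634 FPKM in mutants and 7.51, 4.66 and 3.805 FPKM in controls. In all 4 the groups were separate. For Msln and Upk1b the highest mutant library lay just under the lowest control library, and with median-ratio scaling Upk1b overlapped. Without control library 1 the difference of Upk1b was -0.63.

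Upk3b, another uroplakin, was at 38.8, 39.4, 15.97 and 17.7 FPKM in mutants and 105, 43.2 and 37.5 FPKM in controls, and Muc16, a large membrane mucin, at 7.37, 10.3, 3.87 and 3.38 FPKM in mutants and 28.1, 10.8 and 9.72 FPKM in controls. Each overlapped through mutant libraries 1 or 2. Krt19, a keratin of simple epithelia, was at 24.6, 19.8, 16.7 and 4.75 FPKM in mutants and 67.1, 20.5 and 44.97 FPKM in controls, and it is also expressed by pancreatic duct. Ezr (ezrin), which links membrane to actin and is rich in epithelia, was among the 12 lowest by the same rule as Foxm1, at 10.9, 5.63, 4.09 and 5.37 FPKM in mutants and 20.7, 14.5 and 14.02 FPKM in controls. Wt1, a transcription factor of mesothelium and also of mesenchyme derived from it, was at 40.2, 65.0, 52.9 and 75.9 FPKM in mutants and 76.5, 49.0 and 45.7 FPKM in controls. Its difference of 0.03 was -0.10 without control library 3, and it was higher without control library 1, which held its highest control value. The ductal genes Epcam and Cdh1 were at 1.52 FPKM or less in every library.

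**Figure D3:**
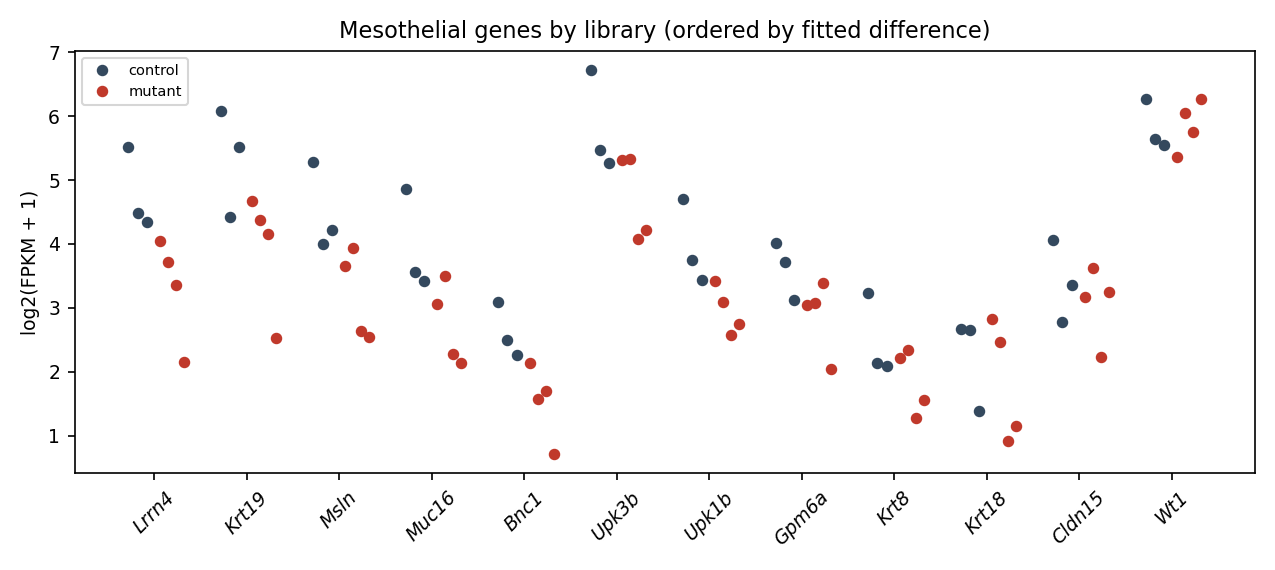
Values as log2(FPKM + 1), on the vertical axis, of 12 mesothelial genes in each library, with control libraries at the left and mutant libraries at the right of each gene, ordered by the fitted difference. Msln, Lrrn4, Upk1b and Bnc1 have separate groups, the highest control point is library 1 in most genes, and the groups of Wt1 overlap.

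Smooth muscle and pericyte genes varied widely between libraries of a group. The median over 28 genes was -0.35, and 0 of 28 had separate groups (against 5.39%). Acta2, smooth muscle actin, was at 333, 159, 111 and 34.7 FPKM in mutants and 501, 257 and 362 FPKM in controls. Myh11, the smooth muscle myosin heavy chain, was at 129, 64.8, 47.2 and 11.3 FPKM in mutants and 119.7, 48.2 and 173 FPKM in controls, and Actg2, the enteric actin, at 335, 134, 125 and 13.5 FPKM in mutants and 244, 91.0 and 263 FPKM in controls. Mutant library 4 was the lowest in all 3, and mutant library 1 lay within the control range for Acta2 and Myh11 and above it for Actg2. Without mutant library 4 the median was -0.10, without control library 3 it was -0.12, and without control library 2 it was -0.61. Among genes of pericytes, Rgs5, a regulator of G protein signalling, was at 67.2 to 195 FPKM in mutants and 89.7 to 148 FPKM in controls, and Pdgfrb, the PDGF receptor beta, at 12.7 to 23.3 FPKM in mutants and 18.0 to 21.7 FPKM in controls, with differences of 0.12 and -0.08, which turned to -0.08 and 0.08 without mutant library 3.

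Glycolytic genes were mostly lower. Of 23, 18 were below 0 with a median of -0.35, and 3 had separate groups, all lower (13.04% against 3.77%). Pkm, the pyruvate kinase of the last step, was at 19.9, 12.9, 10.1 and 13.4 FPKM in mutants and 25.5, 26.5 and 31.3 FPKM in controls, 1.97-fold lower, with a log2 difference of -0.97 ± 0.24 (SE) and an unadjusted p of 0.00494. Tpi1, triose phosphate isomerase, was at 13.5, 16.7, 13.4 and 14.7 FPKM in mutants and 20.5, 19.01 and 31.96 FPKM in controls. Pfkm, a phosphofructokinase, was at 5.50, 6.52, 4.39 and 4.31 FPKM in mutants and 7.39, 6.83 and 12.1 FPKM in controls. Without control library 3 the differences of Tpi1 and Pfkm were -0.42 and -0.41. Without mutant library 3 the median was -0.19, with 15 of 22 below 0.

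Members of highest level did not separate. Gapdh was at 159, 110.2, 73.9 and 68.2 FPKM in mutants and 151, 116 and 130.3 FPKM in controls and Ldha, lactate dehydrogenase A, at 100.3, 128, 97.6 and 117 FPKM in mutants and 104, 127 and 150.1 FPKM in controls. Hk2 (hexokinase) at 9.88, 21.5, 30.6 and 81.5 FPKM in mutants and 18.5, 21.7 and 24.7 FPKM in controls and Eno1 (enolase) at 24.5 to 42.4 FPKM in mutants and 12.4 to 36.6 FPKM in controls had differences of 0.33 and 0.43. That of Hk2 was -0.19 without mutant library 4, and that of Eno1 was 0.02 without control library 1. Sdhd, an anchor subunit of succinate dehydrogenase in the respiratory chain, was also among those 12, at 30.7, 21.6, 9.99 and 16.6 FPKM in mutants and 41.4, 34.6 and 40.7 FPKM in controls.

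Of 28 genes of sterol and fatty acid synthesis, 23 were below 0 with a median of -0.24, which was -0.10 without mutant library 3 and -0.12 without control library 2. In 2 the groups were separate and lower (7.14% against 3.77%). Mvd, an enzyme of the mevalonate pathway, was at 1.46, 0.354, 1.35 and 1.10 FPKM in mutants and 2.37, 3.33 and 1.74 FPKM in controls, lower with separate groups. Acly, which makes cytosolic acetyl-CoA, was at 21.8 to 36.7 FPKM in mutants and 21.1 to 24.8 FPKM in controls, and the desaturase Scd2 at 37.7 to 50.6 FPKM in mutants and 35.0 to 44.5 FPKM in controls. These last 2 overlapped, and Acly was separate and higher with scaling.

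The fibrillar collagens, which make up most of the matrix, did not separate the groups. The median over 29 collagen genes was -0.06, and it turned to 0.03 without mutant library 3 and to 0.02 with scaling. Without mutant library 2 it was -0.15. Col1a2 was at 888, 1114, 715 and 831 FPKM in mutants and 887, 968 and 893 FPKM in controls, and its difference of -0.06 turned to 0.02 with scaling. Col3a1 was at 1124, 1387, 874 and 1069 FPKM in mutants and 1185, 1539.8 and 1477 FPKM in controls, a difference of -0.34. Col4a6, a chain of basement membrane collagen, was lower without overlap, at 0.722 to 1.80 FPKM in mutants and 2.13 to 4.37 FPKM in controls, and Col9a3, of the fibril-associated collagens, was higher, at 1.66 to 3.26 FPKM in mutants and 0.537 to 1.47 FPKM in controls, with a difference of 0.59 that was 0.38 without control library 2. These were 1 of 29 each way (3.45%, against 3.77% lower and 1.62% higher).

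Of 45 glycoprotein and proteoglycan genes, 1 had separate groups higher (2.22% against 1.62%) and 2 lower (4.44% against 3.77%), shares near those of all features, and the median was -0.11 (-0.18 without mutant library 2 to -0.06 without mutant library 3). Vcan (versican), a proteoglycan of loose connective tissue, was at 662, 638, 571 and 799.5 FPKM in mutants and 462, 519 and 406 FPKM in controls, 1.45-fold higher, with a log2 difference of 0.53 ± 0.18 (SE). Fbln2 (fibulin 2), which binds basement membranes and elastic fibres, was at 88.4, 78.3, 62.3 and 82.7 FPKM in mutants and 132, 97.3 and 145 FPKM in controls, 1.604-fold lower. Fn1 (fibronectin) was at 129, 119, 76.0 and 102 FPKM in mutants and 167, 138 and 137 FPKM in controls, 1.39-fold lower. These were the 3 with separate groups.

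Among 37 genes of matrix remodelling the median was -0.03 (-0.12 without mutant library 4 to 0.05 without mutant library 1), with 1 separate and higher (2.70% against 1.62%) and 2 lower (5.41% against 3.77%). Adamts5, a protease that cleaves versican and aggrecan, was at 28.2, 28.9, 33.5 and 28.4 FPKM in mutants and 19.7, 26.5 and 23.3 FPKM in controls, higher without overlap. Adamts2, which trims procollagen, was at 19.1, 23.7, 16.01 and 24.0 FPKM in mutants and 35.1, 25.3 and 32.6 FPKM in controls, and Adamts15 at 3.50 to 5.69 FPKM in mutants and 7.03 to 9.21 FPKM in controls, both lower. Serpinh1, the collagen chaperone Hsp47, was at 53.6 to 112 FPKM in mutants and 106 to 136 FPKM in controls, with overlapping groups.

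Mesenchymal transcription factors gave a median of -0.09 over 37 genes (-0.14 without control library 2 to 0.0027 without mutant library 3), which was 0.00056 without control library 1 and -0.03 with scaling. Bnc2, a zinc finger factor of fibroblasts, was the 1 with separate groups (2.70% against 3.77%), at 43.6, 51.0, 40.3 and 69.6 FPKM in mutants and 77.0, 70.5 and 105 FPKM in controls, 1.65-fold lower, with a log2 difference of -0.72 ± 0.24 (SE). Others known for gut and pancreatic mesenchyme overlapped, among them Foxf1 at 0.770 to 8.95 FPKM in mutants and 4.54 to 8.64 FPKM in controls and Barx1 at 4.02 to 5.56 FPKM in mutants and 3.31 to 10.7 FPKM in controls. Osr1 was at 26.5 to 66.5 FPKM in mutants and 37.6 to 74.9 FPKM in controls. Gli2, an effector of Hedgehog signalling, was at 40.6, 18.7, 40.2 and 24.0 FPKM in mutants and 21.3, 15.8 and 13.04 FPKM in controls, a difference of 0.80 with overlapping groups.

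Over 23 tested genes that supply, receive or modify IGF signals the median was -0.00287 (-0.07 without mutant library 2 to 0.12 without mutant library 3). In 2 the groups were separate, Igf2 higher (4.35% against 1.62%) and Igfbp4 lower (4.35% against 3.77%). The receptors overlapped between groups. Igf1r was at 25.4, 26.6, 20.3 and 33.2 FPKM in mutants and 28.4, 23.2 and 30.7 FPKM in controls, and Insr, the insulin receptor, at 14.98, 19.4, 14.1 and 17.8 FPKM in mutants and 16.3, 13.3 and 15.3 FPKM in controls. Igf2r, which takes up IGF2 for degradation, was at 131, 356, 181 and 301 FPKM in mutants and 199, 178 and 236 FPKM in controls, with a wide range among mutants.

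Of the ligands, Igf1 was at 388, 375, 317 and 309 FPKM in mutants and 348, 288 and 189 FPKM in controls, a difference of 0.37 ± 0.24 (SE) with overlapping groups, and 0.13 without control library 3. Among binding proteins, which hold IGFs outside the cell, Igfbp4 was at 131, 126, 108 and 138 FPKM in mutants and 139.8, 184 and 139 FPKM in controls, 1.23-fold lower with groups that nearly touched, and its difference of -0.29 was -0.15 without control library 2. Igfbp5 was at 148, 126, 95.5 and 97.2 FPKM in mutants and 174, 138 and 146 FPKM in controls and Igfbp3 at 80.1, 68.8, 54.3 and 68.0 FPKM in mutants and 80.9, 86.1 and 73.0 FPKM in controls, both overlapping. Igf2bp2, an RNA-binding protein named for binding Igf2 messages, was at 29.5, 53.7, 34.0 and 50.5 FPKM in mutants and 41.2, 30.4 and 32.8 FPKM in controls. Igfbp1 was listed at 0 in every library.

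Downstream, 39 genes of PI3K, mTOR and RAS signalling had a median of -0.02 (-0.06 without control library 1 to 0.01 without mutant library 4), and 0 of 39 had separate groups (against 5.39% of all features). With scaling 2 were separate and higher, Foxo3 and Spry4. Foxo3, a transcription factor that AKT inhibits, was at 23.3, 24.4, 13.8 and 16.9 FPKM in mutants and 11.1, 14.2 and 11.5 FPKM in controls, with an unadjusted p of 0.0396 and a higher mean in mutants. Nras was at 50.1 to 79.2 FPKM in mutants and 57.9 to 63.4 FPKM in controls. H19 is also known to bind let-7 microRNAs. Of 13 tested let-7 target genes, 9 were above 0 with a median of 0.20, and 0 had separate groups (against 5.39%), while with scaling 1, Ccnd2, was separate and higher. That median was 0.08 without control library 3, 0.10 without mutant library 2 and 0.12 without control library 1 or mutant library 1. Thbs1 (thrombospondin 1) was at 117 to 183 FPKM in mutants and 75.5 to 131 FPKM in controls.

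Other imprinted genes had a median of 0.02 over 32 tested (-0.07 without mutant library 4 to 0.10 without mutant library 1), and 3 of 32 had separate groups, all higher (9.38% against 1.62%). Dlk1, a membrane inhibitor of adipocyte formation, was at 798, 657, 634 and 698 FPKM in mutants and 615, 606 and 566 FPKM in controls, 1.17-fold higher. Peg10, a gene of retrotransposon origin, was at 111, 102, 109.7 and 133 FPKM in mutants and 72.4, 98.95 and 81.6 FPKM in controls, 1.35-fold higher. Mcts2, a retrogene inside an intron of H13, was at 35.7, 32.8, 38.0 and 36.9 FPKM in mutants and 21.8, 20.1 and 25.2 FPKM in controls, a log2 difference of 0.66 ± 0.15 (SE), while its host H13 was at 25.5 to 39.3 FPKM in mutants and 24.7 to 37.6 FPKM in controls with overlapping groups. The gap between groups was wide for Mcts2 and small for Dlk1 and Peg10. Meg3, the non-coding RNA next to Dlk1, was at 359.9, 521, 393 and 680.0 FPKM in mutants and 555, 389.7 and 525 FPKM in controls, and Cdkn1c (p57), a growth inhibitor, at 208, 209, 128 and 309 FPKM in mutants and 205, 311 and 276 FPKM in controls. Both of the last overlapped. Plagl1, a zinc finger factor known to act on imprinted genes, was at 502, 629, 473 and 669 FPKM in mutants and 510.4, 503 and 385 FPKM in controls, and Mest at 778, 748, 799 and 607 FPKM in mutants and 528, 732 and 452 FPKM in controls, also overlapping, though Plagl1 was separate and higher with scaling.

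Signalling pathways held 1 to 4 genes each with separate groups, apart from PI3K and FGF signalling, and with median-ratio scaling those of Fzd4, Chrd, Dhrs3, Egfr and, of the IGF axis, Igfbp4 overlapped. In the Wnt group of 33 (median -0.11), 1 gene was separate each way (3.03%, against 1.62% higher and 3.77% lower). The receptor Fzd4 was at 13.2, 15.6, 16.1 and 14.6 FPKM in mutants and 17.6, 21.4 and 19.9 FPKM in controls, lower in mutants, and the ligand Wnt5b was higher at 1.25 to 2.40 FPKM in mutants and 0.970 to 1.06 FPKM in controls, a difference of 0.37 that was 0.25 without mutant library 2. With scaling Wnt5b stayed separate. In the TGF-beta and BMP group of 39 (median -0.05, -0.09 without mutant library 2 to 0.01 without mutant library 3), 1 was separate each way (2.56%). Smad2, which carries TGF-beta signals to the nucleus, was at 32.2, 38.8, 33.5 and 54.7 FPKM in mutants and 28.3, 31.4 and 26.5 FPKM in controls, higher in mutants, with a difference of 0.43 that was 0.27 without mutant library 4, and the BMP antagonist Chrd was lower at 1.22 to 2.25 FPKM in mutants and 2.33 to 3.22 FPKM in controls. The Hedgehog group of 12 had a median of -0.12 (-0.32 without control library 2 to -0.06 without mutant library 3). Hhip, a decoy receptor and target of the pathway, was its 1 member with separate groups, and lower (8.33% against 3.77%). Hhip was at 1.02, 0.996, 0.337 and 0.435 FPKM in mutants and 5.44, 2.60 and 3.35 FPKM in controls. The targets Gli1 and Ptch1 were at 7.38 to 14.8 FPKM in mutants and 14.03 to 19.1 FPKM in controls and at 6.00 to 14.7 FPKM in mutants and 8.25 to 16.6 FPKM in controls, and both overlapped.

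Of 17 Notch genes, 10 were below 0 with a median of -0.04 (-0.08 without mutant library 1 to 0.12 without control library 3). Groups were separate and higher in 3 (17.6% against 1.62%), namely Hes1, Hey1 and Dlk1, and separate and lower in 1 (5.88% against 3.77%). Hes1 was at 41.8, 42.0, 35.3 and 34.8 FPKM in mutants and 33.1, 33.2 and 25.3 FPKM in controls, 1.26-fold higher with a difference of 0.33 that was 0.20 without control library 3, and Hey1 at 3.55 to 7.40 FPKM in mutants and 1.21 to 2.75 FPKM in controls, also separate. Hes6, which opposes Hes1, was lower at 0.515 to 1.58 FPKM in mutants and 1.83 to 2.40 FPKM in controls. Dhrs3, which converts retinal back to retinol, was at 10.8, 6.40, 14.4 and 14.96 FPKM in mutants and 17.2, 32.9 and 17.6 FPKM in controls, 1.93-fold lower, the 1 of 15 retinoic acid genes with separate groups (6.67% against 3.77%), while Aldh1a2, the enzyme that makes retinoic acid, was at 19.3 to 31.2 FPKM in mutants and 26.7 to 51.3 FPKM in controls and overlapped.

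Of 24 genes of PDGF, VEGF and EGF signalling, 2 were separate and higher (8.33% against 1.62%) and 2 separate and lower (8.33% against 3.77%), with a median of -0.14 (-0.19 without control library 3 to -0.09 without control library 1). Figf (Vegfd), a lymphatic and vascular growth factor, was at 50.1, 44.3, 43.5 and 62.2 FPKM in mutants and 40.0, 40.7 and 36.4 FPKM in controls, and Angpt1, the Tie2 ligand, at 2.21 to 3.21 FPKM in mutants and 1.55 to 2.16 FPKM in controls, both higher without overlap. Egfr, the EGF receptor, was at 22.6, 19.8, 21.9 and 18.6 FPKM in mutants and 25.5, 27.3 and 26.4 FPKM in controls, 1.27-fold lower, and Gas6, a ligand of the Axl receptor, at 18.9, 19.8, 8.89 and 20.0 FPKM in mutants and 30.8, 23.2 and 21.7 FPKM in controls, lower and with its lowest value in mutant library 3, without which the difference of -0.60 was -0.33. Lats1, a kinase of the Hippo pathway, was at 30.1, 29.0, 32.5 and 27.9 FPKM in mutants and 20.1, 25.4 and 22.1 FPKM in controls, 1.32-fold higher. It was the 1 of 18 tested genes of that pathway and its targets with separate groups (5.56% against 1.62%). Their median was 0.02 (-0.08 without control library 1 to 0.11 without control library 3), and with scaling Amotl1 was also separate and higher. In the FGF group of 19, 0 had separate groups, against 5.39% of all features, and with scaling 1, Spry4, was separate and higher. The median was -0.0047 (-0.10 without control library 3 to 0.03 without mutant library 4). Fgf10, a mesenchymal signal to pancreatic epithelium, was at 7.45 to 14.1 FPKM in mutants and 6.38 to 11.4 FPKM in controls.

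Chaperones Hspa5 and Pdia4 of the endoplasmic reticulum were lower without overlap among 30 genes of the secretory pathway with a median of -0.02 (-0.12 without mutant library 4 to 0.03 without control library 2; 6.67% against 3.77%), and with median-ratio scaling Hspa5 overlapped. Hspa5 (BiP) was at 301, 352, 341 and 327 FPKM in mutants and 357, 458 and 475 FPKM in controls, and Pdia4, a disulfide isomerase, at 25.9, 24.2, 19.6 and 34.7 FPKM in mutants and 35.4, 38.8 and 35.3 FPKM in controls. Hsp90b1, another chaperone of the same compartment, overlapped and was at 1075 to 1285 FPKM in mutants and 997 to 1414 FPKM in controls. Of 27 immediate early genes, which dissociation can induce, the median was 0.02 (-0.12 without control library 1 to 0.15 without mutant library 3), and Klf4 was the 1 with separate groups (3.70% lower against 3.77%), at 58.1, 63.6, 49.8 and 52.8 FPKM in mutants and 77.9, 77.6 and 64.9 FPKM in controls. With scaling Egr2 was also separate, and higher. Fos, at 317, 324, 203 and 206 FPKM in mutants and 332, 357 and 321 FPKM in controls, overlapped, with high levels in both groups.

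**Figure D4:**
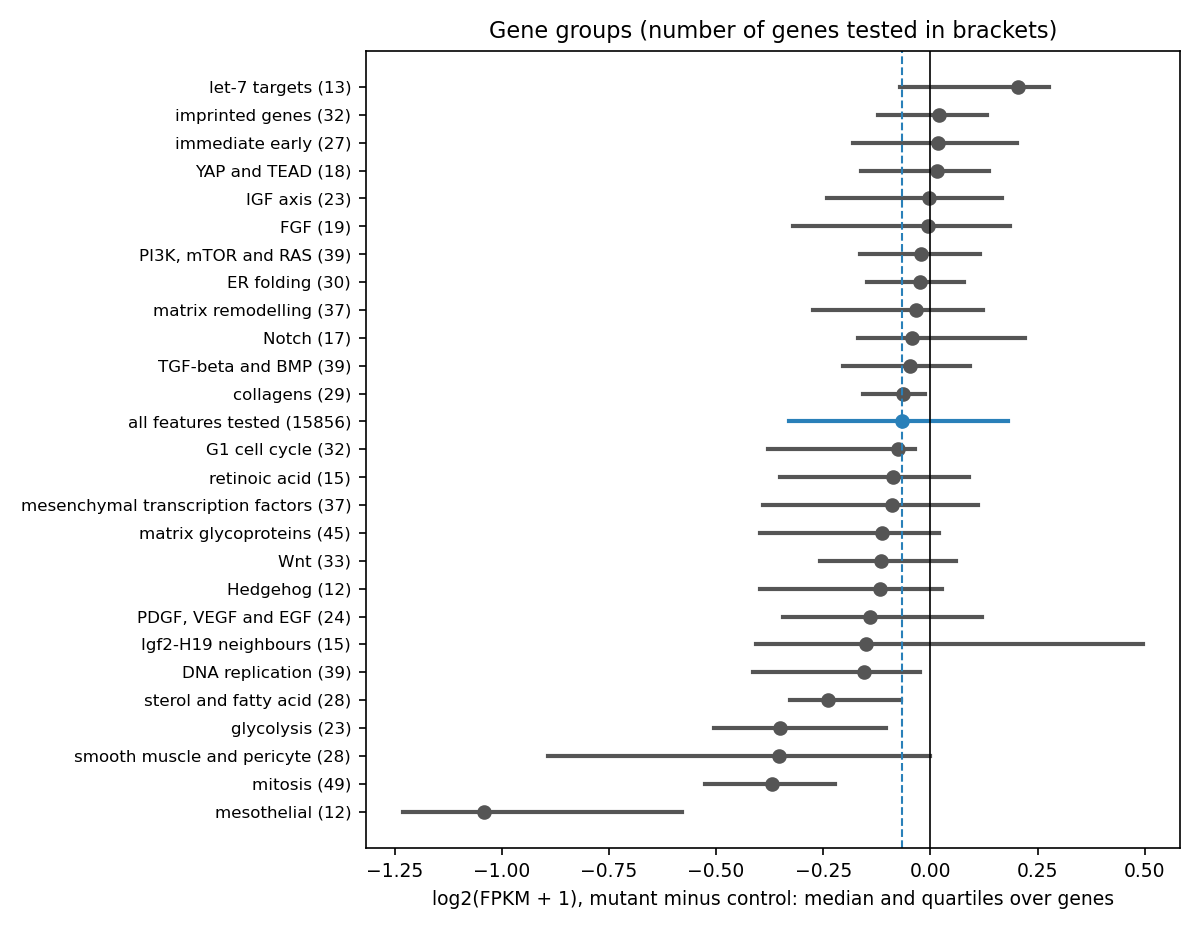
The horizontal axis gives the median (point) and quartiles (line) of the difference in log2(FPKM + 1), mutant minus control, over the tested genes of each group (rows), with their number in brackets and all 15856 features in blue. Among the groups plotted, mesothelial genes lie lowest at -1.04, mitosis, smooth muscle and glycolysis follow between -0.37 and -0.35, and most signalling groups lie near the median of all features, -0.07.

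Outside the lists, protein-coding genes were ranked by their difference among those at a mean log2(FPKM + 1) of at least 3 with separate groups. Groups were separate for 1.73% of protein-coding genes higher and 4.19% lower. Of 135 genes higher and 258 lower that met the rule, the 12 at each end were named. Bola3, a mitochondrial iron-sulfur cluster factor, was at 12.9, 16.6, 8.002 and 29.9 FPKM in mutants and 5.92, 6.03 and 3.08 FPKM in controls, 3.37-fold higher, with a log2 difference of 1.47 ± 0.44 (SE). Panx1, a membrane channel that releases ATP, was at 14.05, 12.1, 24.4 and 14.96 FPKM in mutants and 5.13, 8.74 and 4.12 FPKM in controls, 2.73-fold higher. Slu7, a splicing factor, was at 25.9, 18.4, 17.0 and 25.3 FPKM in mutants and 9.78, 9.55 and 7.51 FPKM in controls, with a log2 difference of 1.17 ± 0.22 (SE) and an unadjusted p of 0.00097 (adjusted 0.809). Slu7 had the tightest groups of these 3.

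Atp6v0c, a proton pump subunit of lysosomes, was at 44.4, 11.4, 19.02 and 11.9 FPKM in mutants and 6.26, 10.1 and 5.72 FPKM in controls, with mutant library 1 far above the others. Nup188, a nuclear pore protein, was at 14.9, 30.7, 21.6 and 35.1 FPKM in mutants and 10.3, 9.69 and 13.6 FPKM in controls. Surf6, a nucleolar protein of ribosome assembly, was at 11.5, 14.6, 16.2 and 14.2 FPKM in mutants and 5.97, 8.41 and 6.57 FPKM in controls, 2.02-fold higher. Hars2, a mitochondrial histidyl-tRNA synthetase, was at 13.2 to 27.9 FPKM in mutants and 6.37 to 11.004 FPKM in controls, and Pam16, of the mitochondrial protein import motor, at 10.8 to 14.4 FPKM in mutants and 2.00 to 9.94 FPKM in controls. The others were Dph3 (0.94), Map3k7cl (0.95, listed as ORF63), Zfp58 (0.92) and Nkiras1 (0.89). The difference of Dph3 was 0.54 without control library 2, and that of Pam16, 0.97, was 0.38 without control library 3.

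At the other end, besides Lrrn4, Msln, Ezr, Foxm1 and Sdhd given above, stood genes of other kinds. Sugp2, an RNA-binding protein, was at 9.12, 10.4, 9.45 and 17.7 FPKM in mutants and 36.9, 25.8 and 30.7 FPKM in controls, 2.67-fold lower, with an unadjusted p of 0.00125. Its log2 difference in the non-mesenchymal fraction was -1.02. H2-K1, a class I major histocompatibility antigen that has close paralogs, so that reads may be split among them, was at 16.3, 13.97, 12.9 and 8.94 FPKM in mutants and 26.3, 37.8 and 25.2 FPKM in controls. Ctsa, the lysosomal protective protein, was at 30.0, 25.9, 16.9 and 18.1 FPKM in mutants and 49.7, 54.0 and 46.8 FPKM in controls, with a log2 difference of -1.14 ± 0.23 (SE). Rab8a, a GTPase of vesicle traffic, was at 8.20, 13.01, 9.47 and 11.3 FPKM in mutants and 34.9, 16.4 and 27.97 FPKM in controls. Ttc13 (-1.13), Cep128 (-1.04), a centriole protein, and Abraxas2 (-1.04, listed as Fam175b) completed the 12, and the difference of Cep128 was -0.65 without control library 1.

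**Figure D5:**
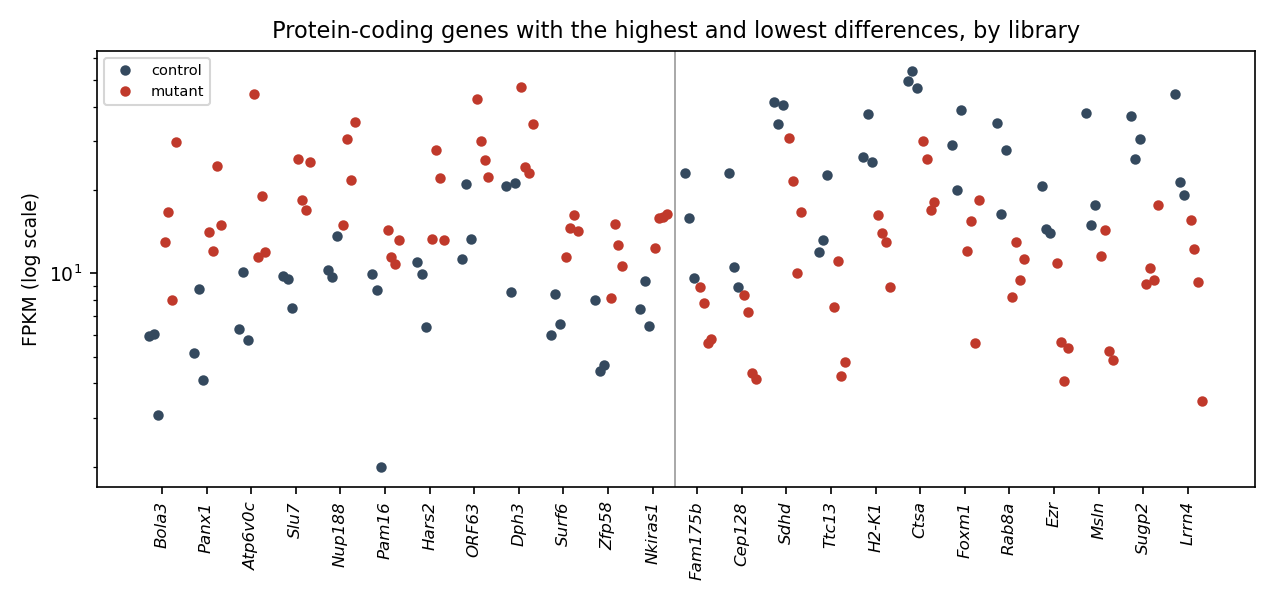
Values in FPKM on a vertical log axis of the 12 protein-coding genes with the highest (left of the line) and the 12 with the lowest (right) differences, per library, controls at the left and mutants at the right of each gene. The genes were chosen for separate groups, and the spread within a group is visible in Atp6v0c, where mutant library 1 is at 44.4 FPKM and the others are at 11.4 to 19.02 FPKM.

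RNA of other pancreatic cells, apart from mesothelium, was present in both groups at levels that overlapped. Summed FPKM of the 12 mesothelial genes was 127 to 198 in mutants and 204 to 436 in controls, without overlap. Summed FPKM of 24 acinar genes was 741 to 2290.0 in mutants and 807 to 1883 in controls, of 22 endocrine genes 56.1 to 156 in mutants and 92.8 to 277 in controls, of 18 endothelial genes 135 to 283 in mutants and 165 to 197 in controls and of 19 leukocyte genes 39.8 to 75.8 in mutants and 22.1 to 48.5 in controls. Over 14 ductal genes it was 28.7 to 50.1 in mutants and 49.6 to 101 in controls, a sum that shares Krt19, Krt8 and Krt18 with the mesothelial genes. The median difference was -0.41 over 13 tested endocrine genes and -0.40 over 7 tested ductal genes. Without control library 2 these medians were 0.00066 and -0.19, and without control library 3 they were -0.75 and -0.68. Ctrb1 was at 1578, 488, 957 and 585 FPKM in mutants and 552, 1223 and 624 FPKM in controls, Ins2 is given above, and the islet factors Mafa and Neurod1 were at or near 0. Gcg (glucagon) was at 14.04, 21.2, 2.74 and 5.94 FPKM in mutants and 31.1, 59.7 and 14.5 FPKM in controls, and Pyy, a gut and islet peptide, at 6.91, 2.84, 2.06 and 4.88 FPKM in mutants and 14.6, 25.6 and 6.55 FPKM in controls, both with lower means in mutants and overlapping groups. Cd68, of macrophages, was at 16.9, 40.2, 27.96 and 64.5 FPKM in mutants and 22.8, 12.9 and 13.9 FPKM in controls, with overlapping groups. Among 66 tested markers of these cells other than mesothelium, and of red blood cells, Hbb-b1 was the 1 with separate groups (1.52% against 5.39%). This beta globin, whose near-identical copies can share reads, was at 2.35, 0.774, 2.08 and 3.74 FPKM in mutants and 6.04, 7.07 and 5.74 FPKM in controls. The part of such cells in the differences above was not tested.

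The difference of the H19DMD effect between mesenchymal and non-mesenchymal cells passed the threshold for 2 of 17105 features (0.0117%), a U6 gene and Mir344g, both listed at 0 in all 7 non-mesenchymal libraries, so that the value is the mesenchymal difference itself, while 1087 had an unadjusted p under 0.05 (6.35%). Of 15250 features with a transcript of at least 200 nt, 0 passed by limma, with 998 at an unadjusted p under 0.05 (6.54%). Leaving out 1 library gave 2 to 9 calls.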

How the data were processed

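RNA was measured in YFP-sorted cells of postnatal day 2 mouse pancreas. Per the labels' protocols, 2 ng of RNA per sample was amplified with Ovation RNA-seq V2 and read single-end on an Illumina HiSeq. Per the submitters' processing notes, TopHat2 2.0.8, Cufflinks 2.2.1 and GRCm38 were used. The deposited values are FPKM per feature, per the file headers. Annotation, strand use and scaling are not given in the sources used here. All libraries compared carry the same sequencing pool in the labels. Litter, sort and amplification day are not given in the sources used here and could not be examined as batches.

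Features averaging 1 FPKM or more across the 7 libraries were fitted on log2(FPKM + 1) with limma 3.58.1 (R 4.3.3, trended variance), with Benjamini-Hochberg adjustment over all 15856 and a threshold of 0.05. The pseudocount understates changes of low features. The difference between fractions was the interaction term over 14 libraries, which treats the libraries of both fractions as independent. No list was tested: each is given by counts and its median. No pair of libraries was a duplicate: at most 0.00638% of values above 0 were identical.

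The comparison, the lists and the rules were chosen with earlier results of these data known. Named genes were H19, Igf2, features of at least 200 nt past the threshold, the 12 protein-coding genes at each end with a mean log2 of at least 3, no library at 0 and separate groups, and up to 4 members per list that met the same level with separate groups, or else the 2 of highest level. Other list members named were chosen after their values were seen, and a few members are not reported here. Alternatives were pseudocounts of 0.1 and 5, no filter or a mean of 5 FPKM, median-ratio scaling, longer or protein-coding features only, the replicate number as a block, other variance models and leaving out each library. Promoters and microRNAs are from RefSeq tables (GRCm38.p6), and gene positions, types and transcript lengths from GENCODE M21, which held 36425 of 38283 feature IDs.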

Additional observations from a re-analysis of the deposited data

Results flagged for a closer look

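In 5 of 88 named genes, 1 of the 4 mutant mesenchymal libraries stood apart from the other 3 by a gap that chance gives in about 1 of 20 groups of this size. Chance alone would give about this many among 88 genes. Nkiras1, which binds a regulator of NF-kappaB, was lowest in mutant library 1 at 12.3 FPKM, and Sugp2 was highest in mutant library 4 at 17.7 FPKM. Mutant library 3 held the other extremes of matrix and ligand genes, Adamts5 at 33.5 FPKM and Gas6 at 8.89 FPKM. Ins1, an insulin gene of beta cells, was at 33.0 FPKM in mutant library 1 and at 15.96 to 16.8 FPKM in the others.

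For 2 features the difference between fractions passed the threshold by the interaction term of limma. A U6 gene (ENSMUSG00000087712) had a difference between fractions of 8.46 on the log2 scale (adjusted p = 1.07e-05), and Mir344g (ENSMUSG00000092850) one of -10.59 (adjusted p = 2.99e-10). Both are short RNAs listed at 0 in all 7 non-mesenchymal libraries, so each value is the mesenchymal difference itself. The U6 gene was also listed at 0 in the control mesenchymal libraries and Mir344g in the mutant ones, so the sizes depend on the pseudocount.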

How the results depend on the processing

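H19 was lower in mutants under all alternatives that held it (it is not protein-coding), but its call was lost with a pseudocount of 5 (-1.81, adjusted p = 0.0866), with no filter on low values (-1.82, adjusted p = 0.165), with variance without a trend (-1.82, adjusted p = 0.0696) and without any 1 library (-1.91 to -1.72). The number of features past the threshold by limma, 11, became 1 among transcripts of at least 200 nt, 0 among protein-coding genes (659 at an unadjusted p under 0.05), 5 with variance shared with the non-mesenchymal libraries and 13 to 27 without 1 library. The number for the difference between fractions, 2, became 6 with a pseudocount of 0.1, 6 with no filter, 0 among transcripts of at least 200 nt (998 at an unadjusted p under 0.05), 0 among protein-coding genes and 2 to 9 without 1 library. The cause was not tested.

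The replicate numbers showed no pairing of mutant with control libraries: same-numbered ones had deviations correlated at -0.040, 0.017 and -0.0047. Same-numbered mesenchymal and non-mesenchymal libraries of a genotype had r of -0.0101 to 0.14 over 7 pairs, against -0.123 to 0.0912 for other numbers. The highest values, 0.14 and 0.118, were from same-numbered libraries. As the ranges overlap, these values do not settle whether the numbers pair the fractions. With the replicate number as a block, 7 features passed and H19 differed by -1.91 (adjusted p = 0.834), 2 features passed for the difference between fractions, and Fgfr1 and Dcn turned to -0.12 and 0.16.

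The difference between fractions for Igf2 turned to 0.0024 with median-ratio scaling and ranged from -0.50 to 0.091 without 1 library, above 0 without non-mesenchymal mutant library 2 or 4. The same scaling turned Col1a2 to 0.016 and Dcn to 0.077. Of the 88 genes named by rule, leaving out 1 library turned 11, with ranges of -0.088 to 0.29 for Mapk3, -0.18 to 0.034 for Col1a2, -0.11 to 0.29 for Cald1, -0.12 to 0.25 for Fgfr1, -0.14 to 0.25 for Spry2, -0.21 to 0.46 for Ctrb1, -1.27 to 0.17 for Ins1, -0.059 to 0.42 for Tek, -0.97 to 0.053 for Cd74, -0.58 to 0.029 for S100b and -0.29 to 0.16 for Dcn. Absolute depth is unknown, so low values have no stated precision: of protein-coding genes whose median exceeded 10 FPKM, 10 had a mutant library at 0 and 5 a control library at 0.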
